A study of Homo sapiens with 4 samples.

Results

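Transcripts of 39 DNA replication origin and fork genes were measured by RNA-seq in 2 libraries of cells with NME7 knocked down by a short hairpin (shNME7) and in 2 libraries of cells with a control hairpin (shCtrl). The genes were taken by symbol from a list of the origin licensing machinery, the replicative helicase, the polymerases, the sliding clamp and its loader, cyclin E and E2F1, and all 39 symbols were found among the 58735 genes of the deposited tables. The choice used no measured value of the groups, but it was made with earlier results of these libraries known. All 4 libraries were labelled as Huh7, a line from a human liver cancer, and no treatment other than the hairpins is labelled. The labels name neither the hairpin's sequence nor a clone, and they do not say whether replicates were separate cultures, so the p-values below measure only the spread between these libraries, which may be technical.

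Chromosomal DNA is copied once per cell cycle. In G1, the origin recognition complex with CDC6 and CDT1 loads the ring-shaped MCM helicase onto origins, a step called licensing, and geminin (GMNN) later blocks CDT1 so that no origin is licensed again. At the start of S phase the kinases CDC7 and cyclin E with CDK2 act on the loaded rings, CDC45 and the GINS complex join them, and primase, the replicative polymerases, the clamp PCNA and its loader RFC assemble at the fork. E2F transcription factors, held back by the retinoblastoma protein until cyclin-dependent kinases release them, are known to drive many of these genes in late G1.

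The cell type label was not borne out by marker transcripts. None of 12 hepatocyte and liver-line markers had a mean of 1 FPKM (fragments scaled to exon length and library size). ALB, AFP, TTR, TF and SERPINA1 had 0 to 2 fragments in each library, HNF4A had 6 to 10, and APOA1, APOB, APOH, FGB and FOXA2 were at 0 in every library. Their summed level was 0.110 and 0.0858 FPKM in shNME7 libraries and 0.0564 and 0.106 FPKM in shCtrl libraries. Of 6 fibroblast markers, COL3A1 stood at 75.1 and 76.6 FPKM in shNME7 libraries and at 75.8 and 66.9 FPKM in shCtrl libraries, and it made up most of the list's sum of 98.7 and 97.3 against 103 and 92.1 FPKM. COL3A1 was 1 of 4 genes of that list with a mean of at least 1 FPKM, while COL1A2 and DCN had at most 16 fragments in a library. The 6 endothelial markers summed to 2.87 and 3.54 FPKM in shNME7 libraries and 2.37 and 2.03 FPKM in shCtrl libraries, with 2 at 0. The 6 leukocyte markers summed to at most 0.270 FPKM in any library, with 4 at 0. The libraries are therefore called by their hairpin below. What part the identity of the cells has in any value was not tested.

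The libraries held 14877906 and 16991397 fragments for shNME7 and 15865321 and 16050268 for shCtrl, and mitochondrially encoded genes took 6.59% and 4.24% of them in shNME7 libraries and 4.76% and 5.92% in shCtrl libraries. NME7, the target of the hairpin, stood at 0.835 and 0.626 FPKM in shNME7 libraries and at 3.64 and 3.93 FPKM in shCtrl libraries. Its mean differed by -80.7% in shNME7 relative to shCtrl libraries, without overlap. On the log2(FPKM + 1) scale it differed by -1.47 (SE 0.17), which missed the threshold in limma-trend (adjusted p = 0.310) and passed it in limma-voom on recovered fragments (adjusted p = 0.000998). All genes below were compared on the same log2(FPKM + 1) scale, as shNME7 minus shCtrl, and that scale understates differences of low genes.

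None of the 39 replication genes passed an adjusted p of 0.05 in limma-trend, where 0 of 12866 tested genes (0.0%) did. With any 1 of the 4 libraries left out, 112 to 632 of all genes were called, none of them a member. None passed in limma-voom either, where 16 of 15112 genes (0.106%) did. At an unadjusted p under 0.05 the count was also 0 of 39 in each test, beside 6.68% of all tested genes in limma-trend and 7.92% in limma-voom. The smallest adjusted p of a member was 0.787 in limma-trend, for PRIM1, and 0.684 in limma-voom. The 95% interval of every member's difference included 0. Each of those 39 intervals also lay between -1 and 1 in both tests, that is, within a 2-fold difference on its scale, and in limma-trend they reached 0.32 to 0.54 to either side of the difference. With 2 libraries a group, even the larger difference of NME7 missed the adjusted threshold in limma-trend.

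The differences ran from -0.30 (PRIM1) to 0.24 (FEN1), with a median of -0.05 and an SD of 0.116, beside a median of 0.01 and an SD of 0.266 over all tested genes. By SD the members spread less than all tested genes did. Of all tested genes 81.9%, and of the 7676 genes with a mean of at least 5 FPKM 84.3%, differed by no more than the largest member difference. The mean was lower in shNME7 libraries for 28 members (71.8%), where 47.8% of all tested genes were lower. The groups did not overlap for 12 members: shNME7 was the lower group for 9 (23.1%), beside 18.4% of all tested genes, and the higher group for 3 (7.69%), beside 17.8%. The 9 were ORC2, ORC4, CDC6, MCM3, MCM6, MCM10, POLA1, PRIM1 and E2F1, and the 3 were GINS2, RFC5 and FEN1. With each library rescaled to a common FPKM total the counts were 14 below and 0 above, beside 24.3% and 12.8% of tested genes. Summed over all 39 genes, the level was 1312 and 1357 FPKM in shNME7 libraries and 1382 and 1345 FPKM in shCtrl libraries, so the groups overlapped, in a sum led by a few abundant genes. The median deviation of the 39 genes from their own means over the 4 libraries weights the genes equally. It was -0.04 and -0.05 in shNME7 libraries and 0.02 and 0.02 in shCtrl libraries on the log2(FPKM + 1) scale, without overlap. That separation was not tested, and an exact permutation p of 2 against 2 cannot fall under 0.33. Rescaling to a common FPKM total alone moved the median difference of all tested genes by -0.05. In bulk RNA a smaller share of cells in S phase and less RNA of these genes per cell cannot be told apart.

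**Figure D1:**
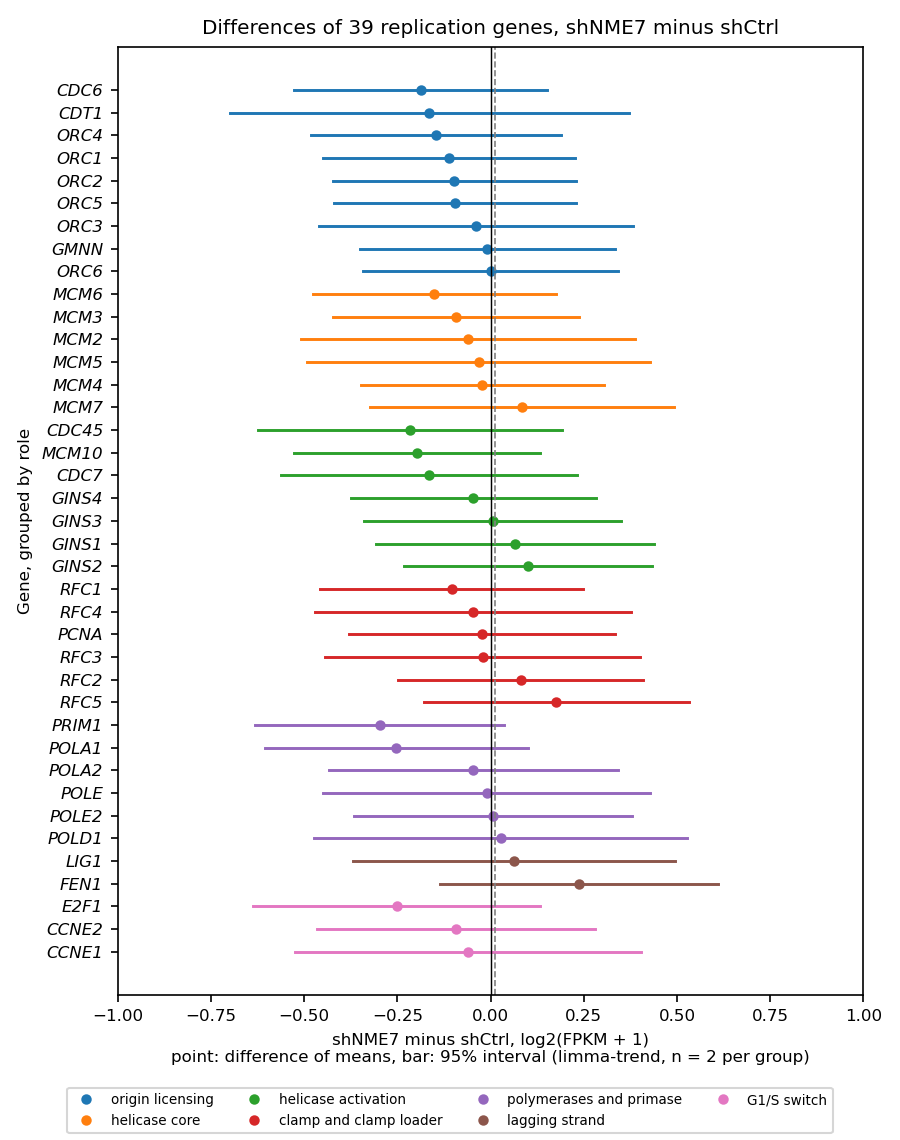
Difference of each of the 39 genes, shNME7 minus shCtrl, on the log2(FPKM + 1) scale (x axis), with genes grouped and coloured by role down the page; points are differences of means, bars are 95% intervals from limma-trend (n = 2 libraries per group), the solid line is 0 and the dashed line the median of all tested genes. Every bar crosses 0 and none reaches -1 or 1.

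**Figure D2:**
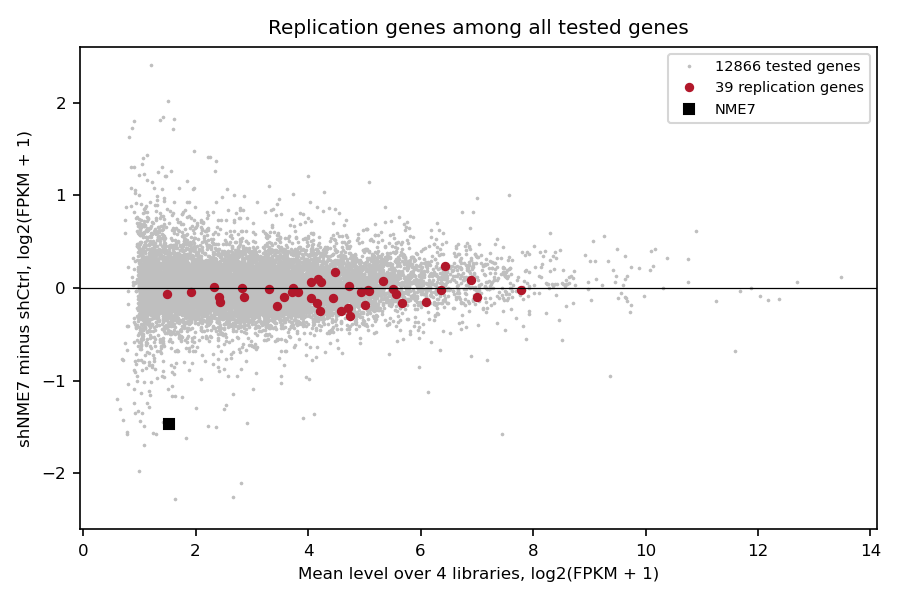
Difference, shNME7 minus shCtrl, on the log2(FPKM + 1) scale (y axis) against the mean level over the 4 libraries (x axis) for the 12866 tested genes in grey, the 39 replication genes in red and NME7 in black. The red points stay between -0.30 and 0.24 inside the grey cloud, and NME7 stands at -1.47.

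Promoter sequences are shown because E2F sites are the known common feature of this gene family. RefSeq promoter windows (GRCh38.p14, 250 bases before to 50 bases after the start) were found for 35 of the 39 genes, all but MCM4, MCM5, GINS4 and CCNE2. The E2F consensus site, searched as TTTCGCGC or TTTGGCGC on both strands with overlapping matches counted, was present in 11 of the 35 (31.4%), beside 322 of 27305 windows of the same length (1.18%). With TTTCCCGC added, a form chosen after the first count was seen, it was present in 18 of 35 (51.4%) and in 763 of all windows (2.79%). A match of letters is not a bound site. The windows below are written 5′ to 3′ on the gene's strand, with the site in capitals. MCM6 carried 4 matches as 2 overlapping pairs, E2F1 carried 1, and the windows of PRIM1 and FEN1, the members with the lowest and the highest difference, held none of the first 2 forms.
MCM6 (chr2:135876394-135876693, minus strand): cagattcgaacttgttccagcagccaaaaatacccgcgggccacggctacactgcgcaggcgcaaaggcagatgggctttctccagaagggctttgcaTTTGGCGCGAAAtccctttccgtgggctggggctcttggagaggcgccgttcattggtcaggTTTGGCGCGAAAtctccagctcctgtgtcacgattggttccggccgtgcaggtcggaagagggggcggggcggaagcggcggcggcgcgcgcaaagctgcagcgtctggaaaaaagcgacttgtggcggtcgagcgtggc
E2F1 (chr20:33686336-33686635, minus strand): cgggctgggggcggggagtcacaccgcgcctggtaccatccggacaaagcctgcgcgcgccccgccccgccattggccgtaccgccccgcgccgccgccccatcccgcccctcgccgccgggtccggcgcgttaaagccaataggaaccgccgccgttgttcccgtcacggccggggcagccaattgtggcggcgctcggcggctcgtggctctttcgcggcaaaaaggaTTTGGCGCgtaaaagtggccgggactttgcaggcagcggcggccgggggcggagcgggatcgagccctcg
PRIM1 (chr12:56752274-56752573, minus strand): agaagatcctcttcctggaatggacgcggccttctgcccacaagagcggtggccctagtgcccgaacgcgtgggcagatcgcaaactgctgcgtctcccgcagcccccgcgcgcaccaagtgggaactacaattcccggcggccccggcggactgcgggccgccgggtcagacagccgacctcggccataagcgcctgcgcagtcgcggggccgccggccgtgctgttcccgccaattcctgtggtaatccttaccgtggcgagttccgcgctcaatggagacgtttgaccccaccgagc
FEN1 (chr11:61792661-61792960, plus strand): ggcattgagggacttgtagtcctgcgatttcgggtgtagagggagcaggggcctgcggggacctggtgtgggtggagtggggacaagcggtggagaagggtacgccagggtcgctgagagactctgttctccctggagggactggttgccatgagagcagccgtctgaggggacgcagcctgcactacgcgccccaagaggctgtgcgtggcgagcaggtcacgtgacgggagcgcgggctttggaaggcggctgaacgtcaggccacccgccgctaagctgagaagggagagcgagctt

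The other 9 carriers are shown as 40-base windows around the site, for comparison of its flanks and orientation. The MCM2 match is a pair of overlapping sites, and in GINS1, POLA1, POLE and POLE2 the site reads on the opposite strand.
CDC6 (chr17:40287870-40287909, plus strand): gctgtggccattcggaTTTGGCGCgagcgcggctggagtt
MCM2 (chr3:127598397-127598436, plus strand): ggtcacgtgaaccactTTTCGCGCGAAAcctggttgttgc
MCM3 (chr6:52284723-52284762, minus strand): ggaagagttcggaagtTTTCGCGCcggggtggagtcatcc
MCM7 (chr7:100101383-100101422, minus strand): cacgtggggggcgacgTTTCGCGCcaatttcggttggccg
GINS1 (chr20:25407662-25407701, plus strand): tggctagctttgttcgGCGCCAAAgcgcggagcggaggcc
POLA1 (chrX:24693765-24693804, plus strand): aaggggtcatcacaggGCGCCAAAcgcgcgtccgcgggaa
POLA2 (chr11:65261893-65261932, plus strand): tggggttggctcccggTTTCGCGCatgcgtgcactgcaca
POLE (chr12:132687337-132687376, minus strand): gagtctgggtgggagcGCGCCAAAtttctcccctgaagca
POLE2 (chr14:49688196-49688235, minus strand): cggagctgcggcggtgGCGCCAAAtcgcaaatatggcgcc

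The mean was lower in shNME7 libraries for 8 of the 11 genes with a site (median difference -0.06) and for 16 of the 24 without (median -0.04). With TTTCCCGC added the medians stood the other way round, with 12 of 18 carriers lower (median -0.03) and 12 of 17 others (median -0.10). The difference between carriers and other members was not tested.

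Among the 9 licensing genes, 8 (88.9%) had a lower mean in shNME7 libraries, beside 47.8% of all tested genes, and the median difference was -0.10. Without overlap between groups, 3 (33.3%) were lower, beside 18.4% of all tested genes. The same shares of all tested genes stand beside the counts of the other role groups below. CDC6, the ATPase that joins the origin recognition complex to load MCM rings, stood at 30.0 and 28.4 FPKM in shNME7 libraries and at 31.4 and 35.5 FPKM in shCtrl libraries. Both shNME7 values were below both shCtrl values, a difference of -0.19 (SE 0.14, 95% interval -0.53 to 0.15, adjusted p = 0.836 in limma-trend), or -0.10 without shCtrl 2. CDT1, the loading factor that geminin inhibits (chr16:88803213-88809258, GRCh38), stood at 42.8 and 51.4 FPKM in shNME7 libraries and at 64.7 and 43.0 FPKM in shCtrl libraries. Its shCtrl 1 value was the highest of the 4 while shCtrl 2 was level with shNME7 1, and the difference was -0.16 (95% interval -0.70 to 0.37), or between -0.45 (without shCtrl 2) and 0.12 (without shCtrl 1) with a library left out. GMNN stood at 46.9 and 41.6 FPKM in shNME7 libraries and at 43.1 and 45.8 FPKM in shCtrl libraries. Both shCtrl values lay between the shNME7 values, and the difference was -0.01 (95% interval -0.35 to 0.33).

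The balance of CDT1 to its inhibitor was also taken within each library. The log2 ratio of CDT1 to GMNN was -0.13 and 0.30 in shNME7 libraries and 0.57 and -0.09 in shCtrl libraries (difference -0.16, exact two-sided permutation p = 0.667, where the smallest p that 2 against 2 can give is 0.33). The 6 subunits of the origin recognition complex, which marks origins for loading, differed by -0.15 to 0.00. ORC4, an ATPase-family subunit, stood at 4.31 and 3.92 FPKM in shNME7 libraries and at 4.74 and 4.59 FPKM in shCtrl libraries, without overlap (difference -0.15, 95% interval -0.48 to 0.19). Its difference was -0.019 once a GC and length trend was removed, and -0.09 without shNME7 2. ORC1, the subunit whose protein is known to be degraded after G1 in human cells, had 18.9 and 21.1 FPKM in shNME7 libraries and 20.7 and 22.6 FPKM in shCtrl libraries, which overlapped. The within-library log2 ratio of ORC1 to ORC2, a subunit kept through the cycle, was 1.45 and 1.72 in shNME7 libraries and 1.53 and 1.67 in shCtrl libraries (exact permutation p = 1). Per length of annotated exons, ORC genes were unequal in all libraries. ORC1 was highest at 20.8 ± 1.51 FPKM and ORC4 lowest at 4.39 ± 0.358 FPKM (SD, n = 4 libraries), a ratio of 4.74. Annotated exons summed to 3157 bases for ORC1 and 8915 for ORC4, so the ratio depends on these lengths. The lengths of the transcripts present were not measured. ORC3, ORC6 and ORC5 stood at 13.2, 12.3 and 10.9 FPKM, with overlapping ranges. ORC5 was below ORC3 in each library, and ORC6 could not be ordered against either.

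Of the 6 genes of the helicase core, MCM2 to MCM7, 5 had a lower mean in shNME7 libraries and the median difference was -0.05. MCM6 (chr2:135839626-135876426) stood at 63.1 and 65.1 FPKM in shNME7 libraries and at 69.5 and 73.1 FPKM in shCtrl libraries. Both shNME7 libraries were lower, with a difference of -0.15 (95% interval -0.48 to 0.18, adjusted p = 0.838 in limma-trend). MCM3 stood at 126 and 122 FPKM in shNME7 libraries and at 133 and 131 FPKM in shCtrl libraries, again without overlap, and its difference was -0.09. The other 4 subunits overlapped between groups. MCM7 stood at 109 and 135 FPKM in shNME7 libraries and at 122 and 107 FPKM in shCtrl libraries. Its difference was 0.08 (95% interval -0.32 to 0.49), -0.01 once a GC and length trend was removed. MCM2, a subunit that CDC7 phosphorylates, stood at 38.5 and 52.7 FPKM in shNME7 libraries and at 49.5 and 44.6 FPKM in shCtrl libraries. The gap between the shNME7 libraries exceeded the group difference of -0.06 (95% interval -0.51 to 0.39), which was 0.16 without shNME7 1 and -0.28 without shNME7 2. MCM4 and MCM5 differed by -0.02 and -0.03.

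Although the 6 MCM proteins form rings with equal numbers of each, their transcripts were not equal per length. MCM3 and MCM7 were highest, at 128 ± 5.01 and 118 ± 12.9 FPKM (SD, n = 4 libraries), and their ranges overlapped. MCM4 (81.0 ± 1.79), MCM6 (67.7 ± 4.48), MCM2 (46.3 ± 6.20) and MCM5 (33.1 ± 4.74 FPKM) followed, each below its neighbour in all 4 libraries. The FPKM of MCM3 was 3.86 times that of MCM5. Annotated exons summed to 3650 bases for MCM3 and 7338 for MCM5, so the ratio and the order depend on these lengths. The lengths of the transcripts present in these cells were not measured.

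**Figure D3:**
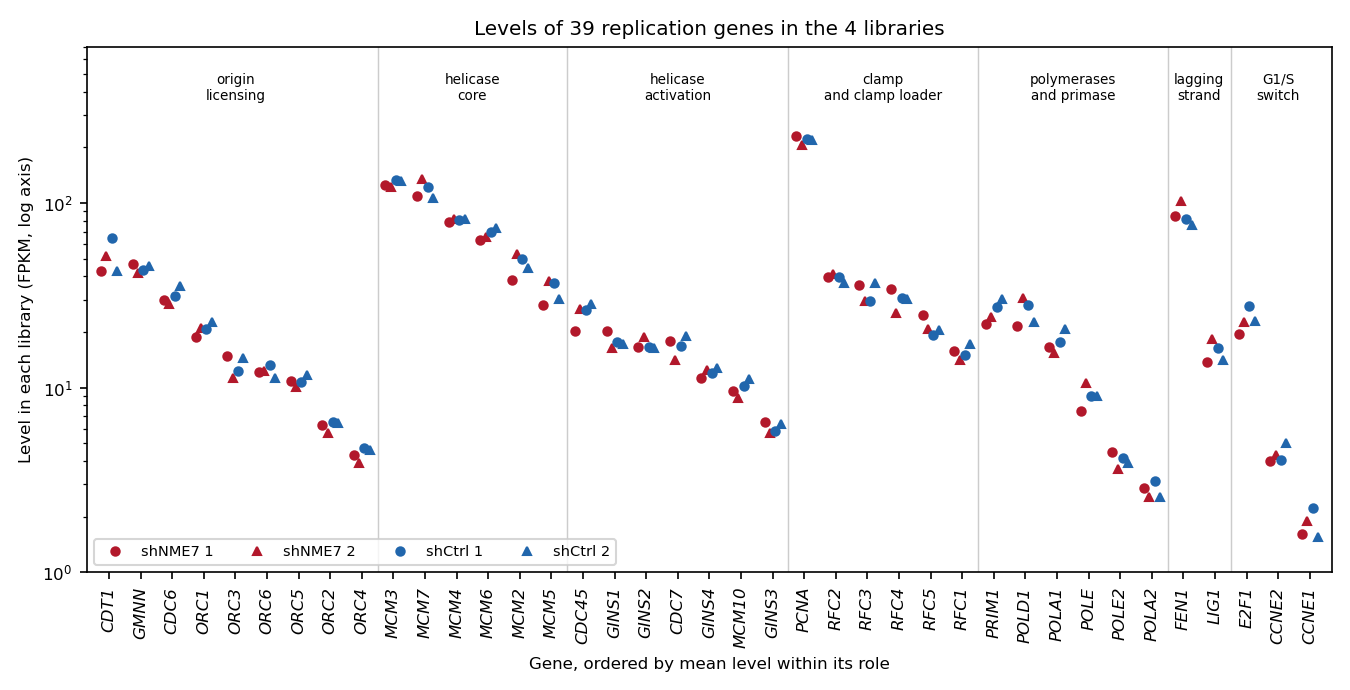
Level of each of the 39 genes in FPKM on a log axis (y axis), with genes grouped by role and ordered by mean level within it (x axis); red marks are shNME7 libraries and blue marks shCtrl libraries, circles library 1 and triangles library 2. Levels span 1.56 to 229.7 FPKM between genes, and the 4 marks of a gene lie close together by comparison.

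The 7 helicase activation genes had 4 lower and 3 higher means, with a median difference of -0.05. CDC45, which joins MCM and GINS to form the active helicase, stood at 20.4 and 26.7 FPKM in shNME7 libraries and at 26.3 and 28.2 FPKM in shCtrl libraries. Only shNME7 1 lay below both shCtrl libraries, and the difference was -0.22 (95% interval -0.62 to 0.19), or -0.03 without shNME7 1 and -0.40 without shNME7 2. MCM10, needed for the helicase to start unwinding, stood at 9.63 and 8.74 FPKM in shNME7 libraries and at 10.2 and 11.1 FPKM in shCtrl libraries. These did not overlap, and the difference was -0.20 (95% interval -0.53 to 0.13, adjusted p = 0.827 in limma-trend), or -0.13 with the GC and length trend removed. CDC7, the kinase that acts on loaded MCM rings, stood at 17.8 and 14.1 FPKM in shNME7 libraries and at 16.8 and 19.0 FPKM in shCtrl libraries, an overlap with a difference of -0.16 (95% interval -0.56 to 0.23). That value rested on single libraries: it was -0.0032 without shNME7 2, -0.33 without shNME7 1, -0.25 without shCtrl 1 and -0.08 without shCtrl 2. The 4 GINS subunits differed by -0.05 to 0.10. GINS2 was the member of this group with both shNME7 libraries above both shCtrl libraries, at 16.7 and 18.9 FPKM against 16.5 and 16.4 FPKM. GINS1 and GINS2 had the highest FPKM of the GINS genes and overlapped (17.9 and 17.1 FPKM over 4 libraries). GINS4 (12.1 FPKM) and GINS3 (6.10 FPKM) followed, an order that also depends on annotated exon length.

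PCNA, the clamp that tethers polymerases to DNA, had the highest FPKM of the 39 genes. It stood at 229.7 and 206 FPKM in shNME7 libraries and at 222 and 219.9 FPKM in shCtrl libraries. Both shCtrl values fell between the shNME7 values, and the difference was -0.02 (95% interval -0.38 to 0.33). Of its loader subunits, RFC5 stood at 24.7 and 20.7 FPKM in shNME7 libraries and at 19.3 and 20.51 FPKM in shCtrl libraries. This was the member of the clamp group with no overlap, higher in shNME7 libraries by 0.18 (95% interval -0.18 to 0.53, adjusted p = 0.837 in limma-trend), which was 0.06 without shNME7 1 and 0.30 without shNME7 2. RFC1, the large subunit, stood at 15.8 and 14.1 FPKM in shNME7 libraries and at 15.1 and 17.2 FPKM in shCtrl libraries (difference -0.10, 95% interval -0.46 to 0.25). With a library left out this ran from -0.20 (without shCtrl 1) to -0.014 (without shCtrl 2), and it was -0.016 with the GC and length trend removed. RFC2 stood at 39.7 and 41.5 FPKM in shNME7 libraries and at 39.9 and 36.7 FPKM in shCtrl libraries, with a difference of 0.08 (95% interval -0.25 to 0.41) that became -0.03 once the GC and length trend was removed. RFC3 and RFC4 differed by -0.02 and -0.05. Pseudogene copies that could take reads from PCNA, RFC3, RFC5 and FEN1 (PCNAP1, PCNAP3, PCNAP4, RFC3P1, RFC5P1 and FEN1P1) had 0 fragments in every library.

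Of the 39 genes, the lowest differences as reported were those of PRIM1 and POLA1, while E2F1 was lowest with the GC and length trend removed. PRIM1, the catalytic subunit of primase, which makes the RNA primers of both strands (chr12:56731596-56752373), stood at 22.2 and 24.1 FPKM in shNME7 libraries and at 27.3 and 30.1 FPKM in shCtrl libraries. Its mean was 23.2 ± 1.35 FPKM in shNME7 libraries and 28.7 ± 1.93 FPKM in shCtrl libraries (SD, n = 2 each), a difference of -19.3% without overlap and of -0.30 on the log2(FPKM + 1) scale (SE 0.14, 95% interval -0.63 to 0.04, adjusted p = 0.787 in limma-trend). POLA1, the catalytic subunit of DNA polymerase alpha, which extends those primers, stood at 16.6 and 15.3 FPKM in shNME7 libraries and at 17.8 and 20.8 FPKM in shCtrl libraries. Its mean was 15.99 ± 0.921 FPKM against 19.3 ± 2.16 FPKM (SD, n = 2 each), a difference of -17.1% without overlap (log2 difference -0.25, 95% interval -0.61 to 0.10, adjusted p = 0.795 in limma-trend), or -0.14 without shCtrl 2.

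The other subunits of the primase-polymerase alpha complex did not share that size. POLA2, the accessory subunit, stood at 2.85 and 2.57 FPKM in shNME7 libraries and at 3.11 and 2.57 FPKM in shCtrl libraries (difference -0.05, 95% interval -0.43 to 0.34). On the same strand, 35.1% of POLA2 exon bases are shared with AP000944.2 and 14.9% of PRIM1 exon bases with AC117378.1. How reads in shared bases were counted is not given in the sources used here. PRIM2, the large primase subunit and not one of the 39, stood at 13.0 and 12.0 FPKM in shNME7 libraries and at 13.7 and 13.3 FPKM in shCtrl libraries, a difference of -0.10; it was picked out here after its value was seen. POLD1 and POLE, the catalytic subunits of polymerases delta and epsilon, and POLE2 differed by 0.03, -0.01 and 0.01. POLD1 shows how far libraries of a group stood apart, with 21.5 and 30.6 FPKM in shNME7 libraries and 28.0 and 22.6 FPKM in shCtrl libraries.

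Both lagging-strand genes had higher means in shNME7 libraries. FEN1, the nuclease that removes the flaps of Okazaki fragments (chr11:61792637-61797244), stood at 85.5 and 102 FPKM in shNME7 libraries and at 81.9 and 76.2 FPKM in shCtrl libraries. Both shNME7 libraries were above both shCtrl libraries, with means of 93.7 ± 11.7 against 79.1 ± 4.03 FPKM (SD, n = 2 each). The difference was 0.24 (SE 0.15, 95% interval -0.14 to 0.61, adjusted p = 0.819 in limma-trend). It was 0.11 without shNME7 2, 0.36 without shNME7 1 and 0.14 with the GC and length trend removed. Of the FEN1 exon bases, 166 (6.70%) are shared with exons of the neighbour TMEM258, and whether strand was used in counting is not given in the sources used here. LIG1, the ligase that seals the fragments, stood at 13.8 and 18.4 FPKM in shNME7 libraries and at 16.3 and 14.2 FPKM in shCtrl libraries. The groups overlapped, with a difference of 0.06 (95% interval -0.37 to 0.49) that was -0.14 without shNME7 2 and 0.26 without shNME7 1.

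All 3 genes of the G1/S switch had lower means in shNME7 libraries. E2F1, an activator E2F (chr20:33675683-33686404), stood at 19.4 and 22.8 FPKM in shNME7 libraries and at 27.6 and 23.1 FPKM in shCtrl libraries. The highest shNME7 value lay just under the lowest shCtrl value, and the difference was -0.25 (SE 0.16, 95% interval -0.64 to 0.13, adjusted p = 0.816 in limma-trend), or -0.13 without shCtrl 1 and -0.14 without shNME7 1. CCNE1, cyclin E1, stood at 1.62 and 1.89 FPKM in shNME7 libraries and at 2.22 and 1.56 FPKM in shCtrl libraries (difference -0.06, 95% interval -0.52 to 0.40). CCNE2, cyclin E2, stood at 3.98 and 4.34 FPKM in shNME7 libraries and at 4.04 and 4.99 FPKM in shCtrl libraries (difference -0.09), and 37.0% of its exon bases overlap exons of INTS8. Both cyclins overlapped between groups, and CCNE1 was the member with the lowest count, 62 fragments in a library. The log2 ratio of CCNE1 to CCNE2 was -0.93 and -0.88 in shNME7 libraries and -0.65 and -1.23 in shCtrl libraries (exact permutation p = 1).

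The replicate libraries differed from each other by GC content, and the replication genes moved with it. Across the 39 genes, Spearman's rho of GC content with the difference of shNME7 2 minus shNME7 1 was 0.74, and with that of shCtrl 2 minus shCtrl 1 it was -0.73, so the trends ran in opposite directions. Over all tested genes the same values were 0.65 and -0.62. Of the 15 members with a GC content of at least 50%, 13 were higher in shNME7 2 than in shNME7 1, and 2 were higher in shCtrl 2 than in shCtrl 1. Of the 24 members under 50%, the counts were 7 and 16. The 39 points share their libraries, so these values are descriptions. The group difference had a rho of 0.25 across the 39 genes and of 0.41 across all tested genes, and -0.27 across the 39 once the GC and length trend was removed. Its median was -0.05 on both sides of 50%. For 31 of the 39 members the gap between replicate libraries of at least 1 group exceeded the difference between groups.

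With a trend on GC content and exon length removed from each library, 15 members were lower in shNME7 libraries without overlap and 3 were higher. Of all tested genes 23.4% were lower and 23.6% higher without overlap in that setting. E2F1 then differed by -0.42 (unadjusted p = 0.00233, adjusted p = 0.213 in limma-trend) and CDT1 by -0.33 (unadjusted p = 0.0195, adjusted p = 0.296). Neither passed, and 13.2% of all tested genes had an unadjusted p under 0.05 in that fit. The part that GC content has in the group values was not tested further.

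**Figure D4:**
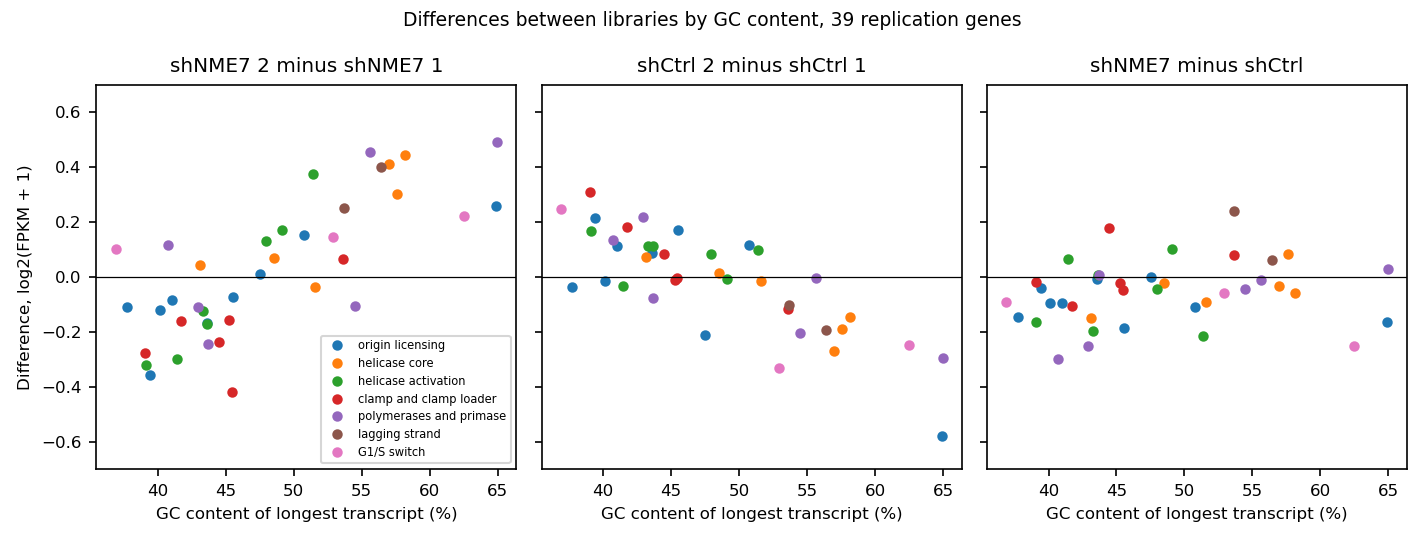
Difference on the log2(FPKM + 1) scale (y axes) against the GC content of the longest transcript in percent (x axes) for the 39 genes, coloured by role: shNME7 2 minus shNME7 1 on the left, shCtrl 2 minus shCtrl 1 in the middle and shNME7 minus shCtrl on the right. The points slope upward on the left (rho 0.74), downward in the middle (rho -0.73) and less steeply upward on the right (rho 0.25).

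Other genes of the same pathway were taken from 5 lists, and none of their members passed in limma-trend or limma-voom. At an unadjusted p under 0.05 in limma-trend there were 2 other replisome genes, 1 firing and licensing control gene, 2 E2F and pocket protein genes, and 0 in the S phase supply and in the G2 and M phase lists, beside 6.68% of all tested genes. Of 26 tested other replisome genes, 12 had a lower and 14 a higher mean in shNME7 libraries, 4 (15.4%) and 6 (23.1%) of them without overlap, near the 18.4% and 17.8% of all tested genes, with a median difference of 0.04. RPA2, a subunit of the complex that coats single-stranded DNA, stood at 43.2 and 43.9 FPKM in shNME7 libraries and at 34.3 and 35.2 FPKM in shCtrl libraries (difference 0.32). RPA3, another subunit of it, stood at 23.8 and 22.9 FPKM in shNME7 libraries and at 17.9 and 18.3 FPKM in shCtrl libraries (difference 0.35, adjusted p = 0.729 in limma-trend). The third subunit, RPA1, picked out here after its value was seen, overlapped between groups, at 56.2 and 58.7 FPKM against 53.4 and 57.1 FPKM. RNASEH2C, a subunit of the nuclease that cuts RNA in DNA hybrids, stood at 6.98 and 8.74 FPKM in shNME7 libraries and at 6.43 and 5.94 FPKM in shCtrl libraries.

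Among 17 firing and licensing control genes, 11 had a lower mean in shNME7 libraries, 3 (17.6%) without overlap, near the 18.4% of all tested genes, and the median difference was -0.05. DTL, the substrate receptor of the ubiquitin ligase that degrades CDT1, stood at 25.9 and 21.6 FPKM in shNME7 libraries and at 31.7 and 33.4 FPKM in shCtrl libraries, a difference of -0.44 (adjusted p = 0.728 in limma-trend and 0.519 in limma-voom). FBXO5, an inhibitor of the anaphase-promoting complex, stood at 7.26 and 6.30 FPKM in shNME7 libraries and at 8.001 and 8.57 FPKM in shCtrl libraries. CDK2, the kinase partner of cyclin E, stood at 32.7 and 31.9 FPKM in shNME7 libraries and at 35.9 and 36.3 FPKM in shCtrl libraries.

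Of 18 tested E2F and pocket protein genes, 12 had a lower mean in shNME7 libraries, and 7 (38.9%) were lower and 2 (11.1%) higher without overlap, beside 18.4% and 17.8% of all tested genes (median difference -0.08). RB1, the retinoblastoma protein that restrains E2F1, stood at 8.32 and 7.14 FPKM in shNME7 libraries and at 10.2 and 11.02 FPKM in shCtrl libraries (difference -0.42). E2F7, a repressor E2F, stood at 5.19 and 4.93 FPKM in shNME7 libraries and at 6.55 and 7.27 FPKM in shCtrl libraries (difference -0.38). CCND1, cyclin D1, stood at 16.9 and 19.9 FPKM in shNME7 libraries and at 21.0 and 24.6 FPKM in shCtrl libraries (difference -0.29). Of 12 S phase supply genes, 8 had a lower mean (median difference -0.08). Without overlap, 1 (8.33%) was lower and 0 higher, beside 18.4% and 17.8% of all tested genes. The lower gene was RRM2, a subunit of ribonucleotide reductase, at 19.5 and 15.1 FPKM in shNME7 libraries and 20.1 and 23.1 FPKM in shCtrl libraries. Of 22 G2 and M phase genes, 12 were lower and 10 higher (median difference -0.01). Without overlap, 2 (9.09%) were lower and 4 (18.2%) higher, beside the same shares of all tested genes. TPX2, a spindle assembly factor, stood at 59.8 and 48.2 FPKM in shNME7 libraries against 65.8 and 72.9 FPKM in shCtrl libraries. UBE2C, a conjugating enzyme of the anaphase-promoting complex, stood at 48.1 and 46.2 against 42.0 and 36.0 FPKM. CDC20, an activator of that complex, stood at 59.6 and 71.7 FPKM in shNME7 libraries and at 58.8 and 51.2 FPKM in shCtrl libraries.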

How the data were processed

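RNA was taken up in Trizol and made into Illumina libraries, per the labels' protocols. The authors deposited FPKM values, 1 table per library with 58735 genes, and the headers name the unit. The submitters' processing notes list HISAT2 2.0.5 and build hg18, while the counting tool, strand use and annotation were not given in the sources used here. GENCODE 29 (GRCh38) holds all 58735 gene IDs and supplied names, coordinates and exon lengths. FPKM times summed exon length gave whole fragments within 0.01 for every gene above 0, so fragments were recovered for limma-voom. The floor for a gene at 0 is 3 fragments in a library (0.177 to 0.202 CPM), counting error only. No pair of libraries agreed within sampling noise (chi-square per degree of freedom 13.97 to 43.8 over 6 pairs). It was 27.3 for the shNME7 pair and 15.1 for the shCtrl pair. Between groups it was 13.97 (shNME7 1 with shCtrl 2), 17.1, 18.0 and 43.8, so libraries of a group were not always the closest.

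The main test was limma-trend (limma 3.58.1, R 4.3.3) on log2(FPKM + 1) for the 12866 genes with a mean of at least 1 FPKM, two-sided, with Benjamini-Hochberg adjustment over all of them and a threshold of 0.05. limma-voom used the 15112 genes averaging 10 fragments or more. Both were also run on simulated counts, without a GC trend and with planted differences larger than any member's. That run does not measure how they perform on differences of the members' size in these libraries. The members, the other lists and the rules were chosen with earlier results of these data known, so none is independent evidence. Named with all values are MCM2, PCNA, CDC6, CDT1, GMNN, CCNE1, CCNE2, E2F1, the 3 members of each role group with the largest absolute difference, and up to 3 genes of each other list without overlap and with at least 5 FPKM in the higher group. ORC1, GINS2, POLD1, PRIM2 and RPA1 were added after their values were seen. Alternatives were a pseudocount of 0.1, no filter, other scalings, a GC and length trend removed by loess (span 0.3), the replicate number as a block, limma-voom variants, thresholds of 0.1 and 0.01 and each library left out in turn. Not every marker on the lists is reported here by name.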

Additional observations from a re-analysis of the deposited data

How the results depend on the processing

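GC and length correction means a loess trend removed from each library. None of the 39 genes was called in any of 21 alternative fits, the smallest adjusted p in any being 0.172, and none passed a threshold of 0.1 or 0.01. All genes called in limma-trend, 0 as reported, numbered 122 with the replicate block, 1 with GC and length correction, 16 in limma-voom, 27 in limma-voom with upper-quartile scaling, 27 in limma-voom with the replicate block, 12 in limma-voom with that correction, and 112 to 632 with a library left out, where the lone library of a group is assumed to vary like the other group. The replicate numbers do not pair the libraries (correlation of deviations -0.347), so the block is no better fit of the design; with the numbers crossed, chosen after seeing the data, 0 genes were called in limma-trend and 24 in limma-voom. The members' median, -0.05, was -0.028 with GC and length correction (with or without the replicate block; -0.032 in limma-voom), -0.10 as TPM, -0.063 in limma-voom with upper-quartile scaling and -0.084 to -0.048 with a library left out; rescaling to TPM moved the median of all tested genes by -0.05. The count of members with a lower mean, 28 as reported, was 24 in limma-voom with GC and length correction, 31 in limma-voom with upper-quartile scaling and 32 as TPM. With a library left out that count ran from 24 to 29. Members lower without overlap, 9 as reported, were 15 with GC and length correction and 14 as TPM, and those higher, 3 as reported, were 0 as TPM. NME7, at -1.47, passed the threshold with the replicate block (-1.47), in limma-voom (-2.39), with upper-quartile scaling (-2.40), with the block in limma-voom (-2.39), with GC and length correction in limma-voom (-2.24) and with a library left out (-1.56 to -1.38).

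Signs of small differences turned. With GC and length correction, with or without the replicate block, MCM7 was -0.013 and RFC2 -0.028; in limma-voom so corrected, MCM7 was -0.043, RFC2 -0.032, LIG1 -0.023, GMNN 0.0015, RFC1 0.00078 and CCNE2 0.0086. With a library left out, CDT1 ran from -0.45 to 0.12, GMNN from -0.093 to 0.076, MCM2 from -0.28 to 0.16, MCM7 from -0.068 to 0.23, PCNA from -0.10 to 0.056, POLA2 from -0.15 to 0.056, LIG1 from -0.14 to 0.26, CCNE1 from -0.23 to 0.11 and CCNE2 from -0.22 to 0.031. Causes were not tested. With 2 libraries a group, intervals reached 0.36 to either side of a difference (median of the members), which is not the limit for an adjusted call: NME7 at -1.47 missed it in limma-trend.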

Other observations

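Many replication genes share a start region with a gene on the opposite strand. Within 1000 bases of a member's start, 15 such protein-coding neighbours of 15 members were found, of which 13 were tested. Their differences ran from -0.23 to 0.56 with a median of -0.01, and 9 had the sign of their member. Without overlap, 1 of the 13 was lower and 4 were higher in shNME7 libraries, beside 18.4% and 17.8% of all tested genes. None was called in limma-trend, where 0.0% of all tested genes were.

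TMEM258, a subunit of the oligosaccharyltransferase and the neighbour of FEN1, averaged 15.7 FPKM in shNME7 libraries and 10.4 FPKM in shCtrl libraries, a difference of 0.56 (adjusted p = 0.728 in limma-trend). HSD17B6, the neighbour of PRIM1, differed by 0.26 where PRIM1 differed by -0.30, with both of its shNME7 libraries above both shCtrl libraries. Its exons share 132 bases with those of PRIM1 (5.42% of PRIM1). PRKDC, the catalytic subunit of DNA-dependent protein kinase and the neighbour of MCM4, averaged 54.1 FPKM in shNME7 libraries and 63.8 FPKM in shCtrl libraries (difference -0.23) without overlap, where MCM4 differed by -0.02. AP4M1, beside MCM7, and PXMP2, beside POLE, stood higher without overlap, by 0.19 and 0.25. Each of these differences was 0.089 with the GC and length trend removed. AP4M1 exons share 392 bases with those of MCM7 (8.94% of MCM7), and PXMP2 had 51 to 85 fragments in a library. These neighbours were named after their values were seen.

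The within-library log2 ratio of MCM10 to MCM2, a firing factor over a helicase subunit, was -1.89 and -2.46 in shNME7 libraries and -2.17 and -1.91 in shCtrl libraries, a difference of -0.14 (exact two-sided permutation p = 1). The shNME7 libraries lay on either side of both shCtrl libraries.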
